A study of Mus musculus with 16 samples.

Results

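Genes for proteins that bind, track, anchor or cut microtubules were followed in cultured mouse sensory neurons whose microtubules were challenged with nocodazole, with or without GNE3511, a compound that blocks the dual leucine zipper kinase DLK. The set was a list of 47 genes. Each matched 1 Ensembl identifier in a table of 55356, and 45 were kept because their mean over all 16 libraries was at least 1 CPM (the count scaled to a common library total). By class, 18 of 19 listed genes for lattice-binding proteins were kept, with 20 of 20 for plus-end proteins, 3 of 3 for minus-end proteins and 4 of 5 for severing enzymes. The genes left out were Fignl1, just under the limit at 0.967 CPM, and Map7d3 at 0.404 CPM, and the lowest gene kept was Fign at 2.61 CPM. All 45 kept genes also passed the general filter on low counts that left 19156 genes for testing.

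The cells were dorsal root ganglion (DRG) neurons from CD1 mouse embryos, kept 6 days in vitro. Their medium held 5-fluoro-2'-deoxyuridine and uridine against dividing cells. The 4 groups of 4 libraries shared these conditions and differed in the compounds. The inhibitor plus nocodazole group received 500 nM GNE3511 and 15 min later 200 nM nocodazole. The nocodazole group received DMSO and then nocodazole, the inhibitor group received GNE3511 and then DMSO, and the DMSO group received the solvent at both steps. The second treatment lasted 16 h in each group. The inhibitor was a single compound at a single dose, so its effect through DLK cannot be told apart from an effect on other targets. Nothing in the labels says that replicates were separate cultures, and the p-values therefore rest on the spread between libraries, which may be technical.

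Microtubules are hollow polymers of α- and β-tubulin that grow and shrink mainly at their plus ends. Lattice-binding proteins such as tau and the MAP1 family lie along the polymer and stabilise or space it. Plus-end proteins gather at growing tips, many of them by holding on to the end-binding (EB) proteins. CAMSAP proteins protect free minus ends, which neurons have in large number because most of their microtubules are not attached to a centrosome. Katanin, spastin and fidgetin are ATPases that cut the lattice. Nocodazole binds free tubulin and makes the polymer disassemble, and DLK is a kinase that signals axon damage to the nucleus through JNK.

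Total counts ran from 30987962 to 43321421 per library. Summed over 8 neuronal markers, the level was 5660 to 7610 CPM in inhibitor plus nocodazole libraries, 5490 to 6820 CPM in nocodazole libraries, 6560 to 8210 CPM in inhibitor libraries and 8350 to 9320 CPM in DMSO libraries. After nocodazole 5 of these 8 were lower, a list that includes the tubulin gene Tubb3. Other cell types were present at low levels. The sums of 8 Schwann cell and satellite glia markers were 73.8 to 138 CPM with inhibitor plus nocodazole, 85.4 to 134 CPM with nocodazole, 87.2 to 154 CPM with inhibitor and 151 to 175 CPM with DMSO. Both groups with nocodazole thus lay below the DMSO range, and no marker of the lists was at 0 in every library. Those of 6 fibroblast markers were 1.40 to 2.45 CPM with inhibitor plus nocodazole, 5.35 to 8.06 CPM with nocodazole, 2.04 to 4.38 CPM with inhibitor and 2.11 to 5.06 CPM with DMSO. For 5 macrophage markers the sums in the same order of groups were 1.75 to 2.98, 4.10 to 5.38, 1.57 to 2.76 and 2.11 to 2.62 CPM. The 8 dividing-cell markers summed to 6.81 to 8.48 CPM with inhibitor plus nocodazole, 7.83 to 10.0 CPM with nocodazole, 7.35 to 8.61 CPM with inhibitor and 6.63 to 7.67 CPM with DMSO. The fibroblast and macrophage sums of the nocodazole libraries lay above those of every other group. The part of these differences in the results was not tested. In bulk RNA, fewer cells of a type and less RNA per cell cannot be told apart.

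Some libraries stood apart from their groups, 1 of them most. Inhibitor plus nocodazole replicate 1 scored -10.4 on the first principal component of expression, which held 38.2% of the variance, while replicates 2 to 4 scored 28.4 to 31.4. The 4 nocodazole libraries scored -69.7 to -59.5. Mitochondrially encoded genes made up 1.71% of its counts, against 0.865% to 1.09% in the other 3 of its group. The share was also high in nocodazole replicates 1 and 2 (1.36% and 1.5%) and inhibitor replicates 2 and 3 (1.39% and 1.78%), while DMSO libraries had 0.765% to 1.07%. For 28 of the 45 genes inhibitor plus nocodazole replicate 1 lay below replicates 2 to 4 of its group, for 9 above and for 8 between them. Results that change without it are given with and without it.

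Per kilobase of annotated exon, the most abundant gene in DMSO cultures was Map1b, a large MAP of growing axons, at 638 ± 46.7 CPM per kilobase (SD, n = 4). Mapt, which encodes the axonal protein tau, followed at 321 ± 14.8 and Map1a at 249 ± 6.78 CPM per kilobase. Among genes placed in the plus-end class Clip3 led, for a CLIP-family protein of the Golgi and plasma membrane, at 182 ± 7.84 CPM per kilobase. The classes were assigned by gene, and where these proteins sit was not measured here. The leading minus-end gene was Camsap2 at 45.6 ± 1.16 CPM per kilobase. Among severing enzymes Spast, which encodes spastin, stood at 18.1 ± 0.420 and the katanin gene Katnal1 at 16.9 ± 0.665 CPM per kilobase. Fign, which encodes fidgetin, was at 0.216 ± 0.0339 CPM per kilobase. The lengths come from an annotation on another build than the authors', and a neuron may use a shorter transcript than the union of exons, so neighbours in this order are not separated.

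**Figure D1:**
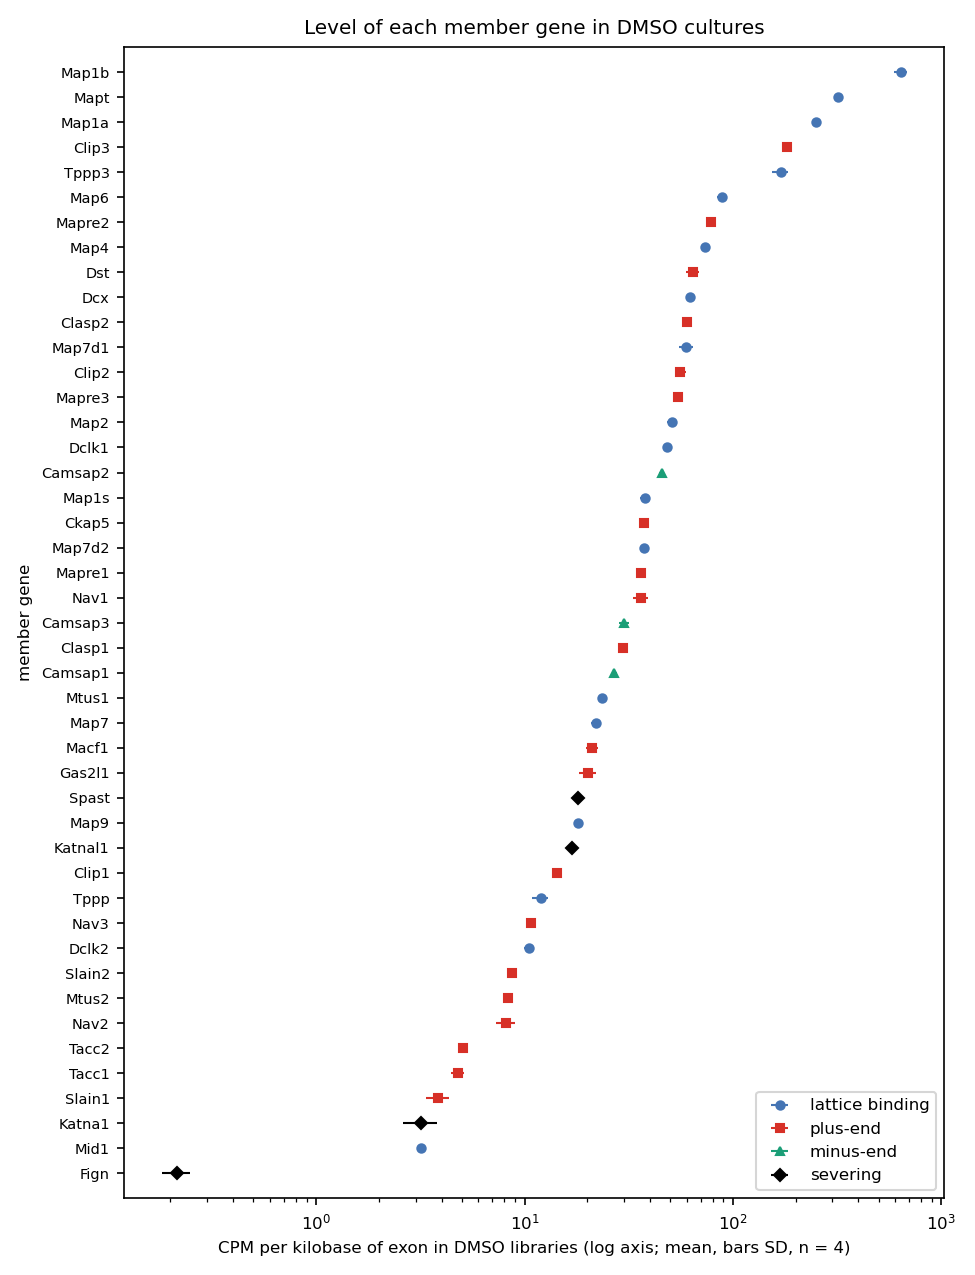
Level of each of the 45 genes in the 4 DMSO libraries, in CPM per kilobase of exon on a log axis, with the SD as bars and the class as marker shape. Map1b, Mapt and Map1a lead at 638, 321 and 249 CPM per kilobase, plus-end genes spread from Clip3 at 182 to Slain1 at 3.85, and Fign lies lowest at 0.216.

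The first comparison looked at nocodazole alone. Of the 45 genes, 23 were lower and 5 higher in nocodazole cultures than in DMSO cultures (edgeR adjusted p below 0.05). Over all 19156 genes, 37.5% were called, 18.6% higher and 19% lower, against 62.2% of the 45 genes, 11.1% higher and 51.1% lower. The 45 genes were measured with a smaller error than most, with a median standard error (SE) of 0.0738 on the log2 scale against 0.145 over all genes. Their median log2 fold change was -0.19, and that of all genes tested was 0.01. Groups of 4 libraries did not overlap in 24 genes on the lower side and 6 on the higher side, against 18.9% and 18% of all genes. By class, 12 plus-end genes fell and 3 rose of 20, and 8 lattice-binding genes fell and 1 rose of 18. Of 3 minus-end genes 2 fell and 1 rose, and of 4 severing genes 1 fell. The median log2 fold changes of these classes were -0.24, -0.18, -0.34 and -0.11. In the same libraries the 8 neuronal markers had a median log2 fold change of -0.43, with 5 lower and 0 higher.

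**Figure D2:**
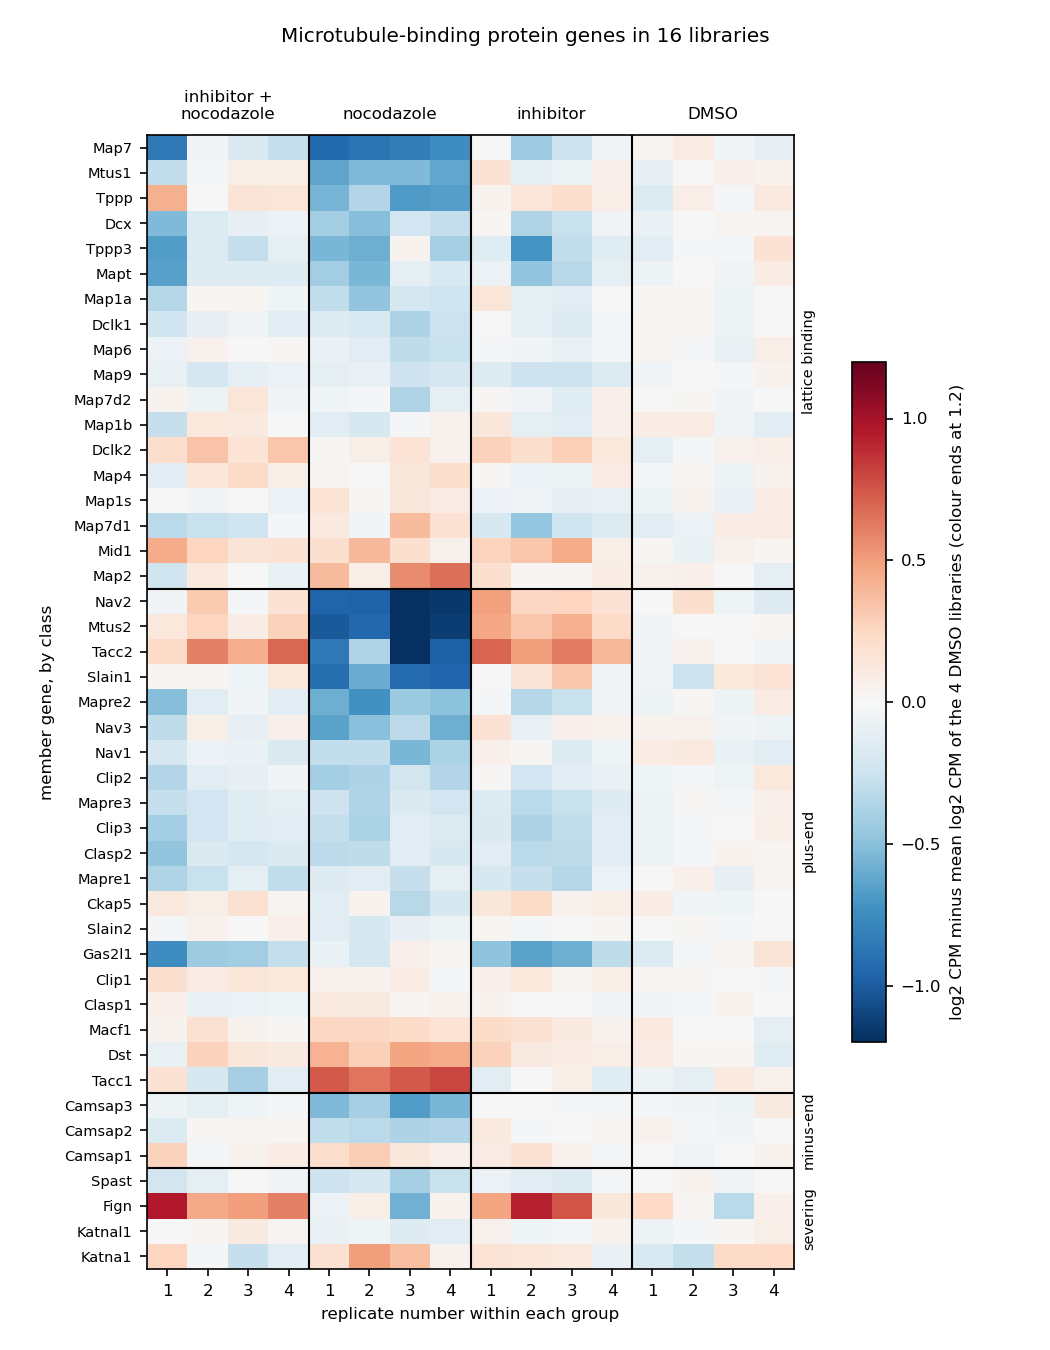
Each row is 1 of the 45 genes and each column 1 library, coloured by log2 CPM minus the mean log2 CPM of the 4 DMSO libraries, with genes ordered in each class by their nocodazole change. Blue fills the nocodazole columns for most genes, down to a log2 fold change of -1.13 for Nav2, while Tacc1, Dst, Macf1 and Map2 are red there. In the columns with inhibitor Tacc2 is red and Gas2l1 blue.

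The largest decreases were those of plus-end genes. Mtus2 encodes TIP150, which binds EB1 and brings a depolymerising kinesin to plus ends. In replicates 1 to 4, Mtus2 had 71.7, 78.7, 69.9 and 79.8 CPM with inhibitor plus nocodazole and 32.6, 34.2, 28.5 and 29.9 CPM with nocodazole. It had 90.8, 82.0, 88.5 and 76.8 CPM with the inhibitor alone and 64.2, 66.0, 66.1 and 66.6 CPM with DMSO. The nocodazole libraries lay far below all others, and both inhibitor groups lay above DMSO. Mtus2 differed between nocodazole and DMSO cultures by a log2 fold change of -1.07 ± 0.0686 (SE, edgeR adjusted p = 1.98e-08). Nav2 encodes neuron navigator 2, a protein of growing neurites whose family tracks plus ends. The inhibitor plus nocodazole libraries held 95.6, 121, 96.2 and 110.5 CPM of Nav2 and the nocodazole libraries 50.2, 50.0, 35.3 and 43.8 CPM. Those with inhibitor held 137, 116, 116 and 110.3 CPM and those with DMSO 98.2, 112, 94.6 and 88.0 CPM. The nocodazole range again did not reach that of any other group. This gave Nav2 a log2 fold change of -1.13 ± 0.113 between nocodazole and DMSO cultures (SE, edgeR adjusted p = 1.44e-06). Tacc2 encodes a transforming acidic coiled-coil protein, of a family that works with the microtubule polymerase of the Ckap5 gene. Tacc2 was measured at 59.5, 77.3, 68.8 and 81.9 CPM with inhibitor plus nocodazole, and at 27.9, 39.4, 19.4 and 25.7 CPM with nocodazole. Its levels were 82.6, 71.8, 78.4 and 66.8 CPM with inhibitor and 49.7, 52.6, 51.0 and 49.7 CPM with DMSO. Nocodazole replicate 2 was the highest of its group and still below every DMSO library. The log2 fold change of Tacc2, nocodazole against DMSO, was -0.85 ± 0.153 (SE, edgeR adjusted p = 0.000371).

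These 3 genes had the largest differences between inhibitor plus nocodazole and nocodazole, so the sequence around their annotated starts is given here. The windows run from 250 bases before to 50 bases after a RefSeq start on GRCm38.p6, a build other than the authors', and which start these neurons used was not analysed here. Capitals mark an AP-1 motif, TGANTCA, the site of Jun and Fos family factors.
Nav2 first start, chr7:48958823-48959122, plus strand: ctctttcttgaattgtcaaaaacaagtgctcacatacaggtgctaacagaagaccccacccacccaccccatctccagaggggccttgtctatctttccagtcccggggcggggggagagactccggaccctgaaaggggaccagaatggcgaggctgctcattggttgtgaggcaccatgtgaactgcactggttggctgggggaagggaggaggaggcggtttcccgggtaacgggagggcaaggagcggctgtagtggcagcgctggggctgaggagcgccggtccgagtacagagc
Nav2 second start, chr7:49245939-49246238, plus strand: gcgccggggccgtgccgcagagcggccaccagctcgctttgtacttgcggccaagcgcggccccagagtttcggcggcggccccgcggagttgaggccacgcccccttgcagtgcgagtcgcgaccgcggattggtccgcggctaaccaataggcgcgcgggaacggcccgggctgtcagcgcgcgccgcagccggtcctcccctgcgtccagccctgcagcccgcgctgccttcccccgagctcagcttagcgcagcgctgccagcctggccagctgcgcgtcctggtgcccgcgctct
Mtus2 first start, chr5:147957070-147957369, plus strand: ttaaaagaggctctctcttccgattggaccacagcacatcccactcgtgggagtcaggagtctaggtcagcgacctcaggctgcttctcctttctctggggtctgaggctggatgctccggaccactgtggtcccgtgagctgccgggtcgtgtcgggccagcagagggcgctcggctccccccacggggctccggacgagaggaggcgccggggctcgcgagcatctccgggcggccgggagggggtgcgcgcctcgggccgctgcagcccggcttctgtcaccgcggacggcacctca
Mtus2 second start, chr5:148264967-148265266, plus strand: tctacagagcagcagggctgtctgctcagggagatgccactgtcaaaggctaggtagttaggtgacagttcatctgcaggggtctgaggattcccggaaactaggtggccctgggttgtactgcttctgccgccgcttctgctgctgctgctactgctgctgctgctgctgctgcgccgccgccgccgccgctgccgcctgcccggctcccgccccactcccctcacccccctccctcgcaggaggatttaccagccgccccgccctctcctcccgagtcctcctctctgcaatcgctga
Tacc2 first start, chr7:130577188-130577487, plus strand: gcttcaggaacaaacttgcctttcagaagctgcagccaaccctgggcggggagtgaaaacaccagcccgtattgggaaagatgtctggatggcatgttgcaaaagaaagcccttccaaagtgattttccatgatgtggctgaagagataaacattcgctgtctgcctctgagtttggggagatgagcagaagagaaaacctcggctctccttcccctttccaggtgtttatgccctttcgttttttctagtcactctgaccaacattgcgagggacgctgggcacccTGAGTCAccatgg
Tacc2 second start, chr7:130692368-130692667, plus strand: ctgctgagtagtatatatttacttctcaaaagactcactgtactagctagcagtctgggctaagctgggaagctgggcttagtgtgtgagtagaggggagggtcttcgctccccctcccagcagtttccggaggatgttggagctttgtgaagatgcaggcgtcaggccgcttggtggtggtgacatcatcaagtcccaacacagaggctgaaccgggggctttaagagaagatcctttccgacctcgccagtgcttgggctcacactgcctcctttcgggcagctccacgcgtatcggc
TGANTCA, read on both strands, occurred in 1 of these 6 windows, with its first letter at position 38 counted from 1 at the first Tacc2 start. The table held 49 windows for 34 of the 45 genes. TGANTCA was in 1 window each of Tacc2 and Dclk1, and in 7.81% of all 32851 windows. TGACGT, the core of a cyclic AMP response element, was in 1 window each of Clasp2, Macf1, Mapre1 and Mapre3 and in 7.51% of all windows. TGATGNAA, a core of sites bound by C/EBP and ATF4 pairs, was in 0 of the 49 and in 3.97% of all windows. All 3 motifs were searched on both strands. No gene held more than 1 kind of motif, but the Dclk1 window held TGANTCA 2 times and the Clasp2 window TGACGT 3 times. A match is a run of letters, not a site.

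Slain1 and Mapre2 followed among plus-end genes. Slain1 encodes a linker between EB proteins and the polymerase. Slain1 stood at 11.2, 11.1, 10.5 and 11.9 CPM in inhibitor plus nocodazole libraries and at 5.87, 7.26, 5.77 and 5.66 CPM in nocodazole libraries. The values were 11.0, 12.2, 13.7 and 10.7 CPM in inhibitor libraries and 10.7, 9.19, 11.97 and 12.3 CPM in DMSO libraries. Every nocodazole library was below every library of the other groups. Slain1 differed between nocodazole and DMSO cultures by a log2 fold change of -0.84 ± 0.113 (SE, edgeR adjusted p = 2.61e-05). Its more abundant relative Slain2 had a log2 fold change of -0.12 ± 0.0436 (SE, edgeR adjusted p = 0.0447). That small decrease was lost without nocodazole replicate 1 or 2, inhibitor replicate 3 or any 1 of the DMSO libraries, with adjusted p up to 0.123. It was also lost without the filter on low counts and in a fit to the compared groups only (edgeR adjusted p = 0.133 and 0.127). The same held with a replicate block and with the mitochondrial share as a covariate (edgeR adjusted p = 0.0601 and 0.105). Mapre2 encodes EB2. In replicates 1 to 4, Mapre2 had 376, 487, 524 and 489.7 CPM with inhibitor plus nocodazole and 358, 323, 394 and 380.3 CPM with nocodazole. It had 531, 422, 445 and 524 CPM with the inhibitor alone and 514, 541, 515 and 573 CPM with DMSO. Inhibitor plus nocodazole replicate 1 lay inside the nocodazole range. This gave Mapre2 a log2 fold change of -0.56 ± 0.0986 between nocodazole and DMSO cultures (SE, edgeR adjusted p = 0.000319).

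The other EB genes had smaller differences. The inhibitor plus nocodazole libraries held 90.7, 94.0, 99.8 and 102 CPM of Mapre3 and the nocodazole libraries 92.8, 85.8, 97.9 and 93.8 CPM. Those with inhibitor held 98.6, 88.2, 91.7 and 99.2 CPM and those with DMSO 106, 112, 108 and 115 CPM. Nocodazole, inhibitor and inhibitor plus nocodazole libraries of Mapre3, which encodes the neuron-rich EB3, were all below the DMSO range. The log2 fold change of Mapre3, nocodazole against DMSO, was -0.25 ± 0.0568 (SE, edgeR adjusted p = 0.00227). For Mapre1, which encodes EB1, the log2 fold change was -0.17 ± 0.0665 (SE, edgeR adjusted p = 0.0577). Expressed per kilobase, EB2 transcripts made up 40.6% ± 1.65 of the EB family in nocodazole cultures and 46.4% ± 0.565 in DMSO cultures (SD, n = 4 each). Those of EB1 made up 24.6% ± 2.05 and 21.4% ± 0.720, and those of EB3 34.8% ± 0.614 and 32.2% ± 0.461. These shares depend on the length used. In DMSO cultures Mapre2 had 78.8 CPM per kilobase by the union of exons and 133 by the longest transcript. Mapre1 and Mapre3 had 36.3 and 54.6 by either length.

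All 3 neuron navigator genes fell. Nav3 was measured at 87.3, 112, 101 and 112 CPM with inhibitor plus nocodazole, and at 68.8, 75.8, 86.6 and 71.8 CPM with nocodazole. Its levels were 121, 101, 112 and 112 CPM with inhibitor and 110.4, 112, 105 and 103 CPM with DMSO. The Nav3 ranges of nocodazole and of the other groups did not meet. Nav3 differed between nocodazole and DMSO cultures by a log2 fold change of -0.51 ± 0.0844 (SE, edgeR adjusted p = 0.000199). Nav1, the most abundant of the 3, lay at 329.6 to 393.5 CPM in nocodazole libraries and 442.5 to 523.2 CPM in DMSO libraries, with a log2 fold change of -0.38 ± 0.072 (SE, edgeR adjusted p = 0.000589). Nav2 thereby held 9.46% ± 0.992 of the family per kilobase in nocodazole cultures and 14.7% ± 0.638 in DMSO cultures (SD, n = 4 each).

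Smaller decreases were called for Clip2, Clip3 and Clasp2, of the CLIP and CLASP families. Clip2, which encodes CLIP-115, fell by 0.34 in log2 CPM (edgeR adjusted p = 0.00153). Clip3 stood at 453, 513, 542 and 548 CPM in inhibitor plus nocodazole libraries and at 493, 461, 548 and 537 CPM in nocodazole libraries. The values were 532, 466, 490.4 and 552 CPM in inhibitor libraries and 575, 591, 604 and 636 CPM in DMSO libraries. The 12 Clip3 libraries with either compound were all below the 4 DMSO libraries. This gave Clip3 a log2 fold change of -0.24 ± 0.0739 between nocodazole and DMSO cultures (SE, edgeR adjusted p = 0.0176). Without nocodazole replicate 2 or DMSO replicate 4 the call was lost (adjusted p = 0.0584 and 0.0529). Clasp2 fell by 0.23 in log2 CPM (edgeR adjusted p = 0.0173), a call that was lost without nocodazole replicate 1 (adjusted p = 0.0548). Clip1, which encodes CLIP-170, and Clasp1 had log2 fold changes of 0.04 and 0.07 and were not called.

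The plus-end class also held 3 genes that rose. Tacc1 is a relative of Tacc2 and moved the other way. In replicates 1 to 4, Tacc1 had 42.1, 32.6, 28.3 and 34.0 CPM with inhibitor plus nocodazole and 62.2, 58.3, 62.1 and 65.0 CPM with nocodazole. It had 34.0, 37.1, 39.1 and 33.7 CPM with the inhibitor alone and 35.8, 34.7, 40.4 and 38.7 CPM with DMSO. No library outside the nocodazole group reached its range. The log2 fold change of Tacc1, nocodazole against DMSO, was 0.73 ± 0.0942 (SE, edgeR adjusted p = 1.77e-05). Dst and Macf1 encode spectraplakins, giant proteins that link microtubules to actin. The inhibitor plus nocodazole libraries held 1941, 2507, 2261 and 2225 CPM of Dst and the nocodazole libraries 2752, 2519, 2874 and 2803 CPM. Those with inhibitor held 2492, 2231, 2195 and 2184 CPM and those with DMSO 2216, 2100, 2092 and 1864 CPM. The lowest nocodazole library was above the highest of any other group by a narrow margin. Dst differed between nocodazole and DMSO cultures by a log2 fold change of 0.41 ± 0.0794 (SE, edgeR adjusted p = 0.000778). Macf1 was measured at 539, 594, 538 and 530.4 CPM with inhibitor plus nocodazole, and at 624, 622, 612 and 588 CPM with nocodazole. Its levels were 609, 593, 563 and 539 CPM with inhibitor and 569.6, 524, 522 and 482 CPM with DMSO. The nocodazole libraries were above all DMSO libraries, and the inhibitor libraries overlapped with both. This gave Macf1 a log2 fold change of 0.22 ± 0.0592 between nocodazole and DMSO cultures (SE, edgeR adjusted p = 0.00727). Gas2l1, another linker to actin, did not pass with nocodazole, at a log2 fold change of -0.05 ± 0.0981 (SE). Ckap5, the polymerase gene itself, did not pass either, at -0.15 ± 0.0691 (SE).

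Among lattice-binding genes, Map7 fell most. Its protein recruits the transport motor kinesin-1 to microtubules. Map7 stood at 60.7, 107, 97.7 and 90.4 CPM in inhibitor plus nocodazole libraries and at 57.7, 60.1, 61.9 and 65.5 CPM in nocodazole libraries. The values were 110.4, 81.2, 92.3 and 107 CPM in inhibitor libraries and 112, 118, 108 and 103 CPM in DMSO libraries. Inhibitor plus nocodazole replicate 1 lay within the nocodazole range and the other 3 of its group lay well above it. The log2 fold change of Map7, nocodazole against DMSO, was -0.85 ± 0.133 (SE, edgeR adjusted p = 0.00011). The related genes Map7d1 and Map7d2 had log2 fold changes of 0.17 and -0.13 and were not called. Map7 thereby held 10.8% ± 0.559 of the family per kilobase in nocodazole cultures and 18.5% ± 1.47 in DMSO cultures (SD, n = 4 each).

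Mtus1 and Tppp fell next. Mtus1 encodes ATIP proteins, which bind and stabilise microtubules. In replicates 1 to 4, Mtus1 had 141, 171, 182 and 183 CPM with inhibitor plus nocodazole and 112, 120.4, 119.9 and 112 CPM with nocodazole. It had 195, 161, 166 and 181 CPM with the inhibitor alone and 162, 174, 180.3 and 178 CPM with DMSO. The nocodazole libraries stood clear of the rest. Mtus1 differed between nocodazole and DMSO cultures by a log2 fold change of -0.58 ± 0.0788 (SE, edgeR adjusted p = 3.02e-05). Tppp encodes a tubulin polymerisation-promoting protein. The inhibitor plus nocodazole libraries held 81.5, 61.0, 67.6 and 67.2 CPM of Tppp and the nocodazole libraries 41.2, 47.6, 38.0 and 38.4 CPM. Those with inhibitor held 62.5, 67.0, 69.5 and 64.0 CPM and those with DMSO 53.9, 63.9, 59.7 and 65.6 CPM. The highest Tppp library was inhibitor plus nocodazole replicate 1, so for this gene that library lay away from the nocodazole range. This gave Tppp a log2 fold change of -0.56 ± 0.0907 between nocodazole and DMSO cultures (SE, edgeR adjusted p = 0.000152). For its relative Tppp3 the log2 fold change was -0.35 ± 0.15 and was not called (SE, edgeR adjusted p = 0.0737).

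Map2 was the lattice-binding gene that rose. It encodes the classical MAP of dendrites and cell bodies. Map2 was measured at 442, 566, 522 and 492 CPM with inhibitor plus nocodazole, and at 676, 552, 772 and 825 CPM with nocodazole. Its levels were 594, 528, 525 and 552 CPM with inhibitor and 539.9, 543, 522 and 482 CPM with DMSO. The nocodazole group was wide, and its replicate 2 lay within the inhibitor plus nocodazole and inhibitor ranges. The log2 fold change of Map2, nocodazole against DMSO, was 0.44 ± 0.102 (SE, edgeR adjusted p = 0.00305). Replicates 1 and 2, the nocodazole libraries with high mitochondrial shares, were the lower ones. With that share as a covariate, a fit added after seeing the data, Map2 had a log2 fold change of 0.52 (edgeR adjusted p = 0.00014). No DMSO library had a high share, so this fit cannot fully separate the share from the treatment. The part of the share in the result was not tested.

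The abundant axonal MAP genes fell modestly or not at all. Map1b stood at 7510, 9932, 9850 and 9020 CPM in inhibitor plus nocodazole libraries and at 8301, 7941, 8975 and 9391 CPM in nocodazole libraries. The values were 10000, 8421, 8265 and 9487 CPM in inhibitor libraries and 9622, 9662, 8794 and 8297 CPM in DMSO libraries. The Map1b groups overlapped throughout, at a log2 fold change of -0.07 ± 0.0965 (SE, edgeR adjusted p = 0.592). Map1a fell by 0.30 and Dcx, which encodes doublecortin, by 0.35 in log2 CPM (edgeR adjusted p = 0.0113 and 0.0108). Dclk1, a doublecortin-like kinase gene, fell by 0.24 and Map6, whose protein makes microtubules resist cold, by 0.19 (edgeR adjusted p = 0.00395 and 0.0147). In replicates 1 to 4, Map9 had 106, 97.7, 104 and 107 CPM with inhibitor plus nocodazole and 104, 106, 95.3 and 97.9 CPM with nocodazole. It had 101, 94.8, 94.4 and 100.5 CPM with the inhibitor alone and 110.4, 113, 112 and 116 CPM with DMSO. Map9 lay in a narrow band in every group, with DMSO on top. Map9 differed between nocodazole and DMSO cultures by a log2 fold change of -0.16 ± 0.0488 (SE, edgeR adjusted p = 0.0153). Map1s and Map4, relatives found also outside neurons, had log2 fold changes of 0.10 ± 0.0486 and 0.09 ± 0.0738 and were not called. Mapt stood at 1397 to 1882 CPM in nocodazole libraries and 1963 to 2179 CPM in DMSO libraries. The Mapt log2 fold change of -0.31 ± 0.119 (SE) missed the threshold (edgeR adjusted p = 0.0518). It was below the threshold without nocodazole replicate 3 or 4, inhibitor plus nocodazole replicate 1 or 3, or inhibitor replicate 1 or 2 (adjusted p 0.0157 to 0.0493), and in DESeq2 (adjusted p = 0.0381).

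The minus-end genes did not move alike. Camsap2 and Camsap3, whose proteins form stable stretches at minus ends, fell and Camsap1, whose protein tracks minus ends, was slightly higher. The inhibitor plus nocodazole libraries held 131, 127, 131 and 134 CPM of Camsap3 and the nocodazole libraries 94.4, 104, 85.5 and 93.1 CPM. Those with inhibitor held 136, 137, 135 and 134 CPM and those with DMSO 135, 133, 131 and 147 CPM. The nocodazole libraries lay below all others, and the DMSO range overlapped those of both inhibitor groups. This gave Camsap3 a log2 fold change of -0.54 ± 0.0551 between nocodazole and DMSO cultures (SE, edgeR adjusted p = 1.82e-06). Camsap2 was measured at 319, 361, 365 and 366 CPM with inhibitor plus nocodazole, and at 292, 285, 276 and 281 CPM with nocodazole. Its levels were 387, 354, 359 and 366 CPM with inhibitor and 370, 353, 349 and 359.6 CPM with DMSO. Here too the nocodazole libraries were the lowest, with inhibitor plus nocodazole replicate 1 next above them. The log2 fold change of Camsap2, nocodazole against DMSO, was -0.34 ± 0.0514 (SE, edgeR adjusted p = 8.93e-05). Camsap1 lay at 225 to 264 CPM in nocodazole libraries and 209 to 223 CPM in DMSO libraries, at a log2 fold change of 0.18 ± 0.0663 (SE, edgeR adjusted p = 0.043). That call was lost in 11 of the 16 fits that left out 1 library (adjusted p up to 0.137), and kept without nocodazole replicate 4, inhibitor plus nocodazole replicate 1 or 2, or inhibitor replicate 2 or 4. It was also lost without the filter on low counts and with a replicate block (edgeR adjusted p = 0.126 and 0.0506). The same held with the mitochondrial share as a covariate (edgeR adjusted p = 0.117) and in DESeq2 (adjusted p = 0.0525). Per kilobase, Camsap1 held 34.9% ± 1.09 of the family in nocodazole cultures and 26.3% ± 0.488 in DMSO cultures (SD, n = 4 each).

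Of the severing genes, Spast fell. Spast stood at 73.0, 79.0, 84.8 and 82.6 CPM in inhibitor plus nocodazole libraries and at 71.4, 73.8, 64.5 and 70.4 CPM in nocodazole libraries. The values were 80.8, 77.4, 76.1 and 83.8 CPM in inhibitor libraries and 85.1, 87.1, 82.3 and 85.0 CPM in DMSO libraries. The nocodazole libraries lay below the DMSO libraries without overlap, and inhibitor plus nocodazole replicate 1 lay within the nocodazole range. Spast differed between nocodazole and DMSO cultures by a log2 fold change of -0.28 ± 0.056 (SE, edgeR adjusted p = 0.001). Katnal1 and Katna1, catalytic katanin genes, had log2 fold changes of -0.11 ± 0.046 and 0.26 ± 0.147 and were not called. Fign had -0.12 ± 0.2 and was not called.

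Several genes that missed the threshold were called when 1 library was left out. Tppp3 was called without nocodazole replicate 3, inhibitor plus nocodazole replicate 1 or inhibitor replicate 2 (edgeR adjusted p 0.00797 to 0.0451). Mapre1 was called without nocodazole replicate 4, inhibitor plus nocodazole replicate 1 or 3, inhibitor replicate 3 or 4, or DMSO replicate 3 (adjusted p 0.0381 to 0.0489). Mid1, which encodes a ubiquitin ligase on microtubules, was called without nocodazole replicate 4 (adjusted p = 0.0492) and Ckap5 without nocodazole replicate 2 (adjusted p = 0.0140). Katnal1 was called without inhibitor replicate 1 or DMSO replicate 1 (adjusted p 0.0453 to 0.0473). Of the 28 calls, 24 were kept in each of these 16 fits. Opposite-strand genes overlap exons of 16 of the 45 genes, 13 of them called here, among them Tacc2, Slain1, Mtus1, Map7, Map2, Dst and Camsap3. As the strand setting of the counting is not given, reads of such a partner cannot be told apart from those of the gene.

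The second comparison looked at nocodazole in cultures that also had GNE3511. Of the 45 genes 0 were called between inhibitor plus nocodazole and inhibitor cultures, where 0.0835% of all genes were called by edgeR, 0.0783% higher and 0.00522% lower. The groups did not overlap on the higher side in 0 of the 45 and on the lower side in 1, Camsap3, against 2.03% and 1.25% of all genes. DESeq2 also called 0 of the 45, where it called 117 genes higher and 8 lower of 36143. In edgeR 1 of the 45, Mtus2, had an unadjusted p below 0.05. The log2 fold changes lay between -0.18 for Nav2 and 0.09, with a median of -0.03, and the median of all genes tested was 0. The 95% intervals of all 45 differences kept to less than 0.5 in either direction on the log2 scale, the bounds reaching -0.43 for Katna1 and 0.45 for Fign. For Mtus2 the log2 fold change was -0.17 ± 0.0669 (SE, 95% interval -0.31 to -0.03). Without inhibitor plus nocodazole replicate 1, 0 of the 45 were called as well. Over all genes 83 were then higher and 5 lower of 19479 tested, against 15 and 1 of 19156 with that library.

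**Figure D3:**
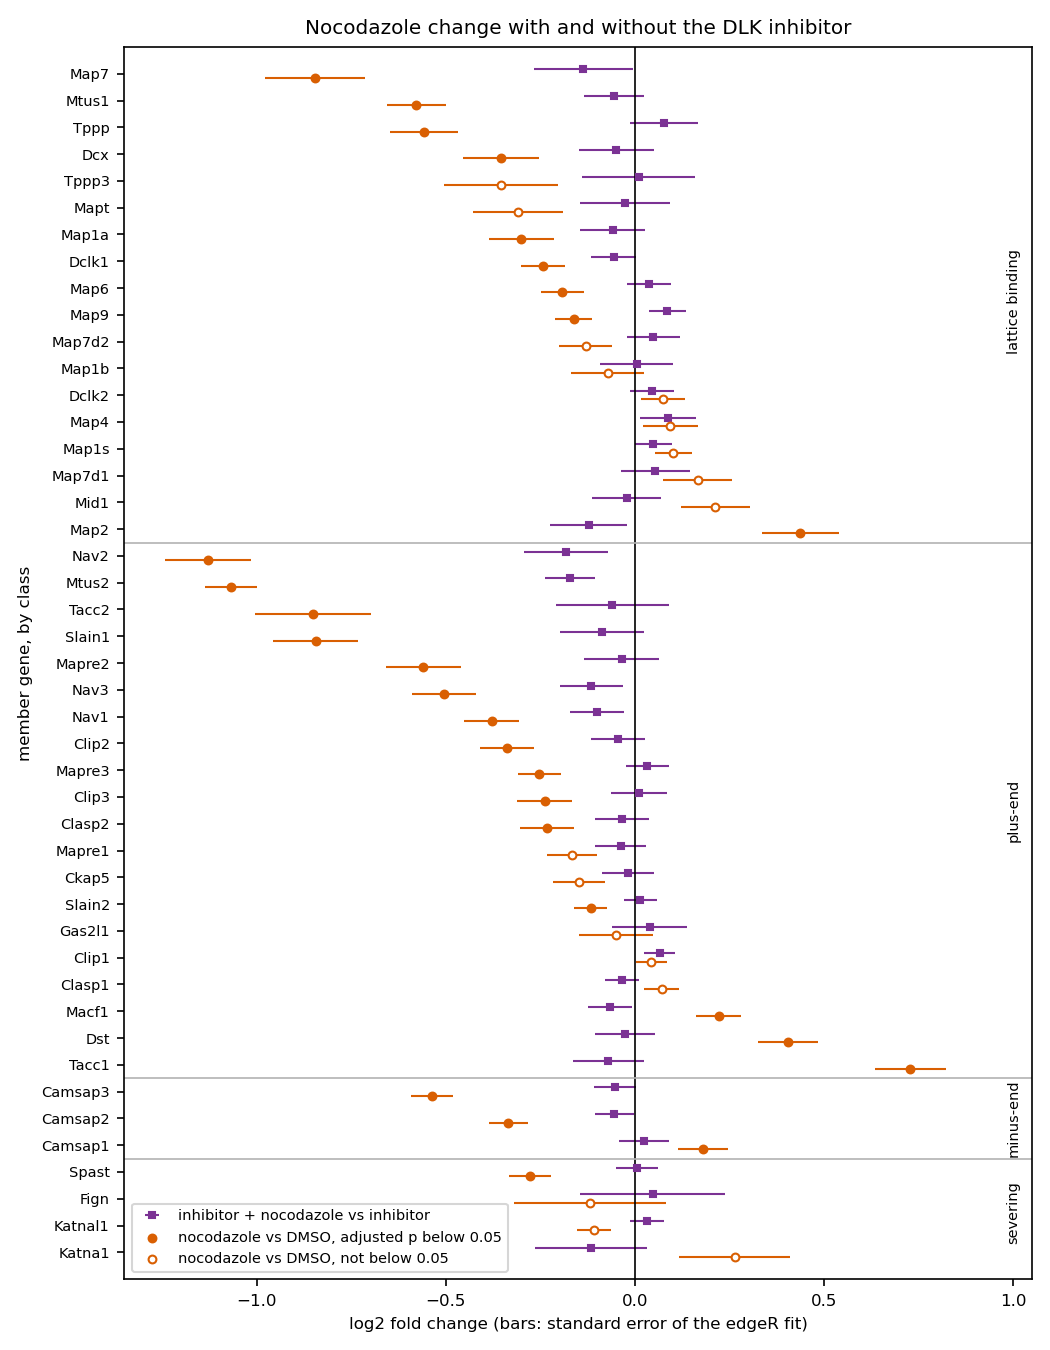
Log2 fold change of each of the 45 genes, with the SE as bars, for inhibitor plus nocodazole against inhibitor (purple squares) and for nocodazole against DMSO (orange circles, filled where the adjusted p was below 0.05). The purple values keep within -0.18 to 0.09 and the orange ones spread from -1.13 for Nav2 to 0.73 for Tacc1.

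The difference between these 2 responses was tested directly, as the change by nocodazole with inhibitor minus that without. It passed for 18 of the 45 genes, 14 positive and 4 negative (edgeR adjusted p below 0.05), where 9.52% and 9.2% of all genes passed (18.7% in either direction). Of the 23 genes that fell with nocodazole alone, 14 had a positive difference and 9 did not pass. Among the 14, Map9 and Mapre3 were also lower with the inhibitor alone, at log2 fold changes of -0.21 and -0.22. These 2 were not called between inhibitor plus nocodazole and nocodazole, at 0.04 and 0.06 (edgeR adjusted p = 0.576 and 0.441). Over all 3631 genes that fell with nocodazole alone, 48.1% had a positive difference. Of the 5 that rose, Tacc1, Map2, Dst and Macf1 had a negative difference and Camsap1 did not pass, while 48.1% of all 3556 genes that rose had a negative difference. The nocodazole and DMSO libraries that chose these genes also enter the difference, so the counts are a description. The largest differences were 0.95 ± 0.157 for Nav2 (SE, edgeR adjusted p = 0.000747) and 0.90 ± 0.0955 for Mtus2 (adjusted p = 2.01e-05). That of Tacc1 was -0.80 ± 0.133 (adjusted p = 0.000787). The median difference was 0.20 over the 45 genes and -0.003 over all genes tested. Over the 8 neuronal markers it was 0.50, with 4 positive and 0 negative (edgeR adjusted p below 0.05). By class, 7 plus-end, 4 lattice-binding, 2 minus-end and 1 severing gene passed with a positive difference.

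This count depended on inhibitor plus nocodazole replicate 1. Without it, 23 of the 45 differences were positive and 4 negative (edgeR adjusted p below 0.05), and the 18 first calls were kept. The count over all genes was also higher, at 2740 positive and 2478 negative of 19479 tested without that library, against 1824 and 1763 of 19156 with it. The 9 added were Map1a, Map6, Mapt, Dcx, Dclk1, Clasp2, Clip2, Clip3 and Nav1. For Mapt the difference was 0.39 (edgeR adjusted p = 0.0475) without that library and 0.28 (adjusted p = 0.255) with it, and for Dcx 0.40 (adjusted p = 0.0179) and 0.31 (adjusted p = 0.144). Mapt lay at 1306 CPM in that library and at 1832 to 1841 CPM in the other 3 of its group. The call for Nav3 was lost without nocodazole replicate 1 or 4, inhibitor plus nocodazole replicate 2 or 4, inhibitor replicate 2 or 3, or DMSO replicate 2 (adjusted p 0.0525 to 0.0694). That for Macf1 was lost without inhibitor plus nocodazole replicate 4, inhibitor replicate 1 or 2, or DMSO replicate 4 (adjusted p 0.0543 to 0.0640).

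The third comparison set inhibitor plus nocodazole cultures against nocodazole cultures and shares its libraries with the comparisons above. Here 19 genes were higher and 5 lower, 42.2% and 11.1% of the 45, against 17.7% and 16.2% of all genes (33.9% in either direction). The groups did not overlap for 16 genes on the higher side and 4 on the lower side, against 14.3% and 14.2% of all genes. Tacc2 differed most, with a log2 fold change of 1.35 ± 0.154 (SE, edgeR adjusted p = 4.72e-06). Mtus2 and Nav2 followed at 1.26 ± 0.0688 and 1.24 ± 0.113. On the lower side were Tacc1 at -0.85 ± 0.0944, Map2 at -0.48, Gas2l1 at -0.41, Map7d1 at -0.38 and Dst at -0.29. Fign, Ckap5 and Katnal1, on the higher side, and Map7d1, on the lower side, were called here and in no other comparison. Fign was at 0.76 ± 0.197 (SE, edgeR adjusted p = 0.00678), Ckap5 at 0.25 ± 0.0692 and Katnal1 at 0.15 ± 0.046. The Fign libraries lay at 2.85 to 4.03 CPM with inhibitor plus nocodazole and at 1.39 to 2.18 CPM with nocodazole. The median log2 fold change was 0.14 over the 45 genes and 0.002 over all genes tested. Over the 8 neuronal markers it was 0.40, with 4 higher and 0 lower (edgeR adjusted p below 0.05). The fibroblast and macrophage marker sums, given above, were lower in the inhibitor plus nocodazole libraries. The part of these cell types in the differences was not tested.

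Of these 24 calls 18 were kept in each fit without 1 library. Map6 was lost without nocodazole replicate 3 or 4 or inhibitor plus nocodazole replicate 2 (edgeR adjusted p up to 0.0703). Dclk2 was lost without nocodazole replicate 1 or 4 or inhibitor plus nocodazole replicate 2 or 4 (up to 0.0735). Nav1 was lost without nocodazole replicate 3 or inhibitor plus nocodazole replicate 2 or 3 (up to 0.0680), and Slain2 without nocodazole replicate 2 or inhibitor plus nocodazole replicate 2 or 4 (up to 0.0712). Katnal1 was lost without nocodazole replicate 3 or 4 or inhibitor plus nocodazole replicate 3 (up to 0.105), and Spast without nocodazole replicate 3 or inhibitor plus nocodazole replicate 3 (up to 0.0809). Without inhibitor plus nocodazole replicate 1, Map1a, Dcx, Clasp1, Clip2 and Katna1 were called in addition (adjusted p 0.0042, 0.0325, 0.0481, 0.00666 and 0.0363).

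**Figure D4:**
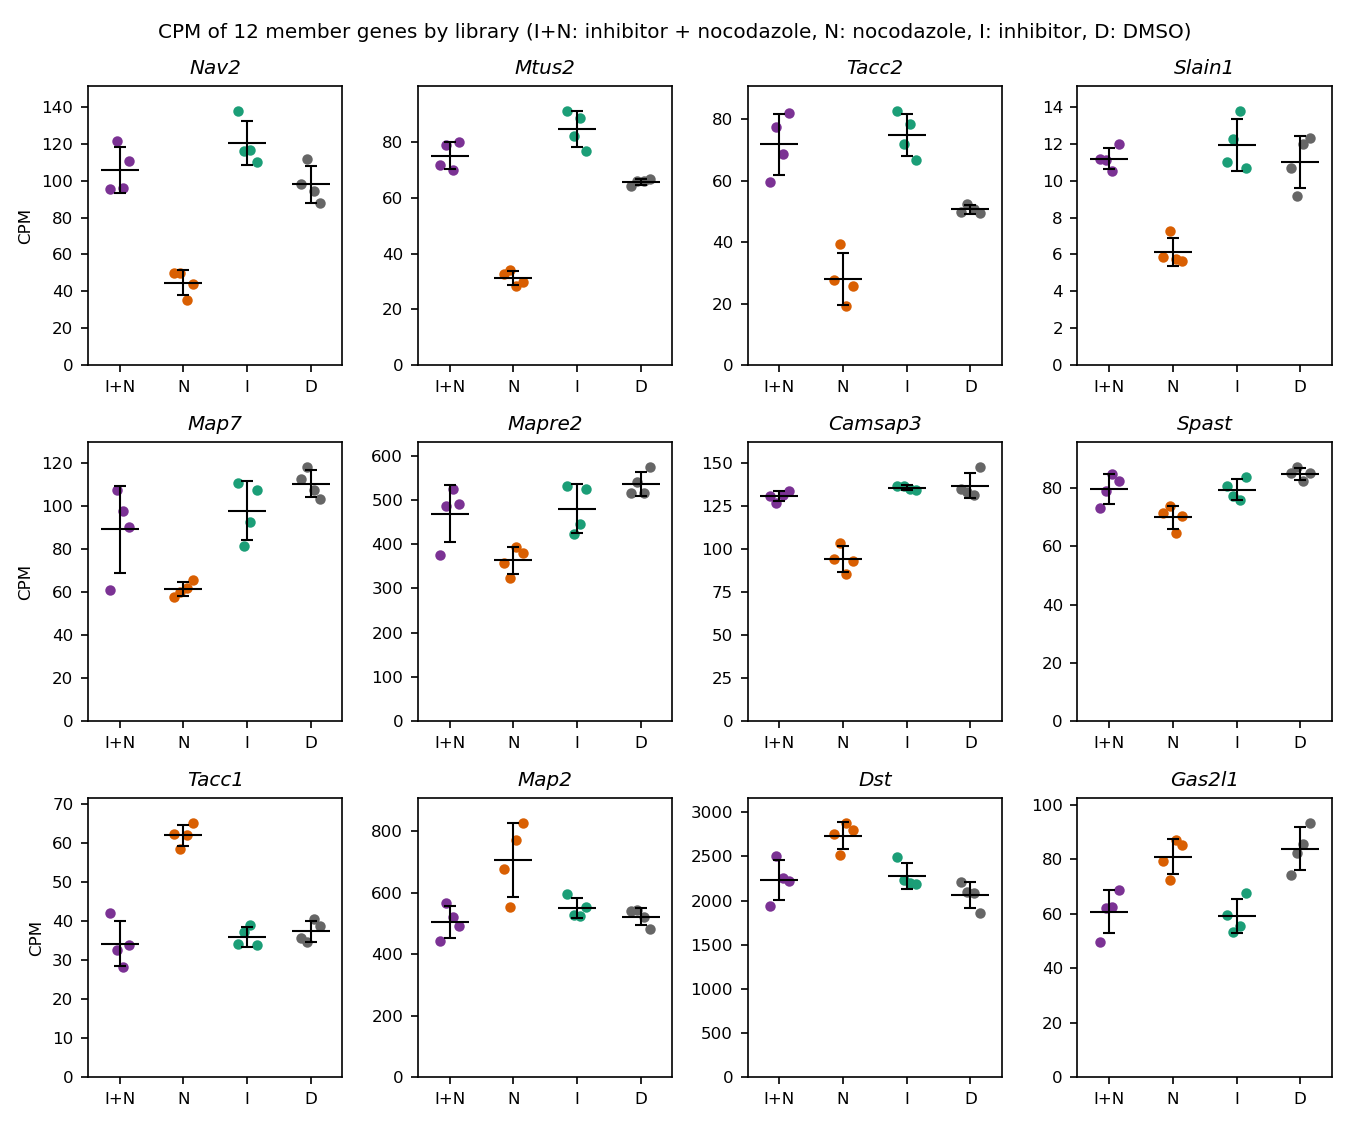
CPM of 12 genes in each library (points), with the mean and SD of 4 libraries (bars), for inhibitor plus nocodazole, nocodazole, inhibitor and DMSO. Nav2, Mtus2, Tacc2, Slain1, Camsap3 and Spast dip with nocodazole alone, Tacc1, Map2 and Dst peak there, and Gas2l1 is lower in both groups with inhibitor.

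The fourth comparison looked at GNE3511 alone. Of the 45 genes, 4 were higher and 5 lower (edgeR adjusted p below 0.05), 8.89% and 11.1%, against 5.78% and 7.24% of all genes (13% in either direction). The groups did not overlap for 5 genes on the higher side and 8 on the lower side, against 10.1% and 11.6% of all genes. The median log2 fold change was -0.01, and 0.03 over all genes tested. In replicates 1 to 4, Gas2l1 had 49.7, 62.1, 62.5 and 68.7 CPM with inhibitor plus nocodazole and 79.2, 72.4, 86.8 and 85.2 CPM with nocodazole. It had 59.6, 53.5, 55.6 and 67.6 CPM with the inhibitor alone and 74.3, 82.1, 85.7 and 93.1 CPM with DMSO. The inhibitor libraries of Gas2l1 lay below the nocodazole and DMSO libraries, with or without nocodazole. This gave Gas2l1 a log2 fold change of -0.50 ± 0.0986 between inhibitor and DMSO cultures (SE, edgeR adjusted p = 0.00383). Mtus2 and Tacc2, which fell with nocodazole, were higher with the inhibitor, at log2 fold changes of 0.36 ± 0.0671 and 0.56 ± 0.15 (SE, edgeR adjusted p = 0.00274 and 0.022). Dclk2 and Mid1 were also higher, at 0.22 and 0.29. Mapre3, Mapre1, Clip3 and Map9 were lower, at -0.22, -0.22, -0.24 and -0.21.

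The inhibitor calls varied with the libraries in the fit, as did those over all genes. Gas2l1, Mtus2 and Map9 were kept in each of the 16 fits (edgeR adjusted p up to 0.0186, 0.0137 and 0.0445). The counts without 1 library were 1 to 5 higher and 2 to 7 lower. Without inhibitor replicate 3, which had the highest mitochondrial share, 1 was higher and 2 lower, and without inhibitor replicate 2, 3 and 2. Over all genes 515 were then higher and 775 lower without inhibitor replicate 3, and 490 and 752 without inhibitor replicate 2, against 1107 and 1387 of 19156 with all libraries. Among the kept genes of the set, 1 was higher and 5 lower without inhibitor replicate 1. Their counts were 1 and 6 without DMSO replicate 1, and 3 and 3 without nocodazole replicate 1. Over all genes, 643 were higher and 1220 lower without inhibitor replicate 1. They were 778 and 1449 without DMSO replicate 1, and 971 and 1254 without nocodazole replicate 1. Of the kept genes of the set, 2 were higher and 3 lower without DMSO replicate 2, and 2 and 2 without DMSO replicate 4. The counts over all genes were 588 and 935 without DMSO replicate 2, and 518 and 756 without DMSO replicate 4. The call for Tacc2 was lost without inhibitor replicate 1 or 3 or DMSO replicate 1 or 4 (adjusted p 0.0524 to 0.0667). That for Mapre3 was lost without inhibitor replicate 2 or 3 or DMSO replicate 4 (adjusted p 0.0569 to 0.0675). Dclk2, Mapre1, Clip3 and Mid1 were lost in 4, 7, 6 and 13 of the 16 fits (adjusted p up to 0.0793, 0.129, 0.145 and 0.153). With the mitochondrial share as a covariate, 2 genes were higher and 2 lower, with 722 and 1035 over all genes. Clasp2 and Fign, just over the threshold (adjusted p = 0.0531 and 0.0569), were called in 7 and 3 of those fits, and Map7d1 (adjusted p = 0.0677) in 2.

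Other genes that act on microtubules were counted from a list of 65, of which 62 were tested. With nocodazole 9 were higher and 21 lower than in DMSO, a median log2 fold change of -0.11, where 18.6% and 19% of all genes were called. Of the 62, 0 were called between inhibitor plus nocodazole and inhibitor, and 9 positive and 4 negative differences between those responses passed, where 9.52% and 9.2% of all genes did. Kinases and phosphatase subunits that act on MAPs fell in 9 of 12 cases and rose in 0, led by Cdk5r1, the neuronal activator of Cdk5, at -0.60 ± 0.0581 (SE, edgeR adjusted p = 1.03e-06). Of 21 genes of microtubule nucleation, 3 fell and 3 rose. The γ-tubulin genes Tubg1 and Tubg2 fell, at -1.02 ± 0.0862 and -0.45 ± 0.0808, as did Cdk5rap2, which activates the γ-tubulin ring, at -0.47. Of 10 plus-end partners tested, 6 fell and Ndel1 rose, with Dctn1, the dynactin subunit that reaches plus ends, at -0.25 ± 0.055. Of 15 other binders 5 rose and 1 fell, led by Gas2l3 at 2.35 ± 0.234 and the mitotic gene Spag5 at 1.41 ± 0.267, both of low level. These 2 are genes of dividing cells, whose marker sums, given above, were also higher with nocodazole, and the part of those cells was not tested.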

How the data were processed

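RNA was measured in 16 libraries, 4 in each of 4 groups, made from total RNA after ribosomal RNA depletion, per the labels' protocols. The deposited table holds counts, all whole numbers, for each Ensembl gene and library. STAR, Salmon and GRCm39 are named in the submitters' processing notes without versions or roles, so the counts may be read counts or rounded estimates. The strand setting is not given in the sources used here. Symbols came from GENCODE M21 on GRCm38 and matched 52080 of 55356 identifiers (94.1%), and 47 of 47 listed genes matched 1 row each.

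CPM was the count divided by the library total times its TMM factor (0.9595 to 1.064). Counts as deposited were tested with edgeR 4.0.16 (quasi-likelihood, TMM, filterByExpr, 1 mean per group, all 16 libraries) in R 4.3.3, with limma 3.58.1 loaded. Benjamini-Hochberg adjustment ran over the 19156 genes of each comparison, called below 0.05, and the fit was checked on simulated data. DESeq2 1.42.0, RLE scaling, no filter, a replicate block, fits to the compared groups only and each library left out were alternatives. The mitochondrial share as a covariate was added after seeing the data. Fold changes of low genes carry a prior count of 0.125.

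Values in every library are given for genes called with an absolute log2 fold change of at least 0.5 with nocodazole or with the inhibitor, for genes with a called difference between the responses, and for the most abundant gene per length of each class. The members and lists were chosen with earlier results of these data known. Replicates of a group differed from one another by more than counting noise in all 24 pairs.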

Additional observations from a re-analysis of the deposited data

Results flagged for a closer look

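In 9 of 180 groups of 4 libraries (45 genes in 4 groups), 1 library lay far from the other 3. Chance gives such a gap in about 1 in 20 groups. Inhibitor plus nocodazole replicate 1 accounted for 4 of the 9. It was lowest for Mapt (1306 CPM), Clasp2 (334.1 CPM) and Camsap2 (318.9 CPM), and highest for Clasp1 (349.5 CPM). The others were Macf1 in inhibitor plus nocodazole replicate 2 (highest, 593.7 CPM), Slain1 in nocodazole replicate 2 (highest, 7.264 CPM) and Dst in inhibitor replicate 1 (highest, 2492 CPM). In DMSO libraries they were Clip2 in replicate 4 (highest, 306.1 CPM) and Map7d2 in replicate 3 (lowest, 151.5 CPM).

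The nocodazole response differed with and without inhibitor for 18 genes, tested as a difference of log2 fold changes (edgeR adjusted p below 0.05). In order of size the positive differences were 0.95 for Nav2, 0.90 for Mtus2, 0.79 for Tacc2, 0.76 for Slain1, 0.71 for Map7 and 0.64 for Tppp. They continued with 0.52 for Mtus1, 0.52 for Mapre2, 0.48 for Camsap3, 0.39 for Nav3, 0.29 for Mapre3, 0.28 for Spast, 0.28 for Camsap2 and 0.25 for Map9. The negative ones were -0.80 for Tacc1, -0.56 for Map2, -0.43 for Dst and -0.29 for Macf1.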

How the results depend on the processing

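Over the 45 genes, 5 comparisons and all alternatives, 0 calls changed direction, 116 values lost and 94 gained a call. With 1 library left out, 4 to 6 genes were higher and 21 to 26 lower with nocodazole, 1 to 5 higher and 2 to 7 lower with inhibitor, and 0 changed between inhibitor plus nocodazole and inhibitor. Against nocodazole, inhibitor plus nocodazole gave 15 to 22 higher and 5 to 7 lower, and the difference between responses 13 to 23 positive and 3 to 4 negative. With inhibitor alone, 2 of the 45 genes were higher without the filter on low counts. Over all genes 646 of 36165 were then higher, against 1107 of 19156 in the main fit. With the mitochondrial share as a covariate, chosen after seeing the data, 2 of the 45 were higher and 2 lower. Over all genes that fit gave 722 and 1035. The cause was not tested. Of the 18 differences between responses, 13 were kept in all settings. Map9 and Macf1 were lost without the filter (edgeR adjusted p = 0.0535 and 0.0662). Mapre3, Spast and Nav3 were lost with the covariate (edgeR adjusted p = 0.0547, 0.0590 and 0.1). Nav3 and Macf1 were also lost in fits without 1 library, as given above.

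Replicate numbers showed no clear pairing of the libraries, though this check cannot show that they were unpaired. Deviations from the group means of same-numbered libraries had a median correlation of 0.026 (range -0.399 to 0.232, 8 of 24 pairs over 0.1), and 3 of 16 libraries correlated best with their own number. Between different numbers the median was -0.014 (range -0.333 to 0.452, 20 of 72 pairs over 0.1). The highest, 0.452 and 0.355, were those of inhibitor plus nocodazole replicate 1 with inhibitor replicate 2 and with nocodazole replicate 2. All of these libraries had high mitochondrial shares. With the replicate block, 4 genes were higher and 23 lower with nocodazole, 3 and 5 with inhibitor, 0 and 0 between inhibitor plus nocodazole and inhibitor, 19 and 6 against nocodazole, and 15 and 4 in the difference. Fign and Katna1 lay under 10 CPM, and how much of their spread is counting error was not tested.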
